A study of Mus musculus with 2 samples.

Results

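The transcripts described here are those of 8 secreted or membrane-held growth factors that act on myeloid cells or signal through the IL-6 receptor family: Csf1, Csf2, Csf3, Kitl, Lif, Il6, Il11 and Clcf1. They were selected by gene symbol, with earlier results of these data known, and all 8 were found among the 19498 genes of the deposited table. RNA came from 4T1, a metastatic mouse mammary carcinoma line, in 1 library of cells given LY500307, a small synthetic compound that activates estrogen receptor beta, and 1 library of control-treated cells. The study asked which RNAs differ between these conditions. Dose, time of exposure and the agent given to the control cells are not stated in the sources used here. Both libraries were made from total RNA depleted of ribosomal RNA. With 1 library per condition there is no replicate spread, so the differences below are differences between these libraries, and the intervals given cover counting error only.

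Colony-stimulating factors were named for their power to make blood progenitors grow into colonies of mature cells. M-CSF, encoded by Csf1, drives macrophage survival and differentiation through the receptor kinase CSF1R. GM-CSF, encoded by Csf2, acts on granulocytes and macrophages, and G-CSF, encoded by Csf3, is the main factor of neutrophil production. Stem cell factor, encoded by Kitl, acts on the receptor kinase KIT of progenitors and mast cells. IL-6, IL-11, LIF and CLCF1 belong to the cytokine family whose receptors share the signalling chain encoded by Il6st, which activates JAK kinases and STAT3. The 4T1 line is known as a tumour model in which cytokines from the cancer cells expand neutrophils in the host.

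Messenger RNAs of this group are textbook examples of transcripts that carry AU-rich elements, repeats of the letters ATTTA in the 3′ untranslated region where decay proteins such as that encoded by Zfp36 bind. The stretch of 30 bases with the most copies is printed for each member, because such elements are a known feature of cytokine messenger RNAs and because genes for their binding proteins are described further on. The sequences were read 5′ to 3′ on the transcript strand from the longest coding transcript of each gene in GENCODE M21, and capitals mark ATTTA.
Csf2: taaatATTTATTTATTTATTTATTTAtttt
Csf3: gtttATTTAtctctATTTAatATTTAtgca
Csf1: taaggtcATTTAaatatctATTTAaaaaat
Kitl: tttgtgacttgATTTATTTAtctggtagtt
Lif: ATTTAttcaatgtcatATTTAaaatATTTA
Il6: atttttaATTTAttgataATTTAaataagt
Il11: ccagatcttATTTATTTATTTAttttggta
Clcf1: atATTTATTTAtttggagatgttATTTAtt
Every member held ATTTA, as did 70.7% of 10444 3′ untranslated regions of protein-coding genes with enough signal to be compared. The overlapping form ATTTATTTA, found in 6.6% of those regions, occurred in Csf2, Il11, Kitl and Clcf1 and was not matched in Csf1, Csf3, Lif or Il6. Csf2 stood out in density, with 9 copies of ATTTA in 317 bases, or 28.4 per kb, beside a median of 1.35 per kb over the same 10444 regions. Csf3 had 6 copies in 669 bases (8.97 per kb), Il11 10 in 1194 bases (8.38 per kb) and Il6 10 in 1668 bases (6.0 per kb). Clcf1 had 4.34 per kb, Kitl 3.16, Lif 2.20 and Csf1 1.89. A match is a description of the reference sequence, and binding was not measured here.

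The deposited values are read counts after rescaling between libraries, and whole reads could be recovered from them. Recovered reads numbered 15104003 in the LY500307 library and 14541874 in the control library. The epithelial identity of the cells was visible in both, with 36999 reads in the LY500307 library and 40551 in the control library over 6 epithelial markers (Epcam, Cdh1, Krt8, Krt18, Krt19 and Cldn7). Of 12 leucocyte and myeloid markers, 9 were in the table, with 118 summed reads in the LY500307 library and 105 in the control library, of which Cd68, also known from lysosomes of other cells, held 102 and 81. The leucocyte gene Ptprc had 4 reads in the LY500307 library and 2 in the control library, and Itgam had 1 in each. Of 8 fibroblast and endothelial markers, summed reads were 365 in the LY500307 library and 356 in the control library, of which Pdgfra held 285 and 271. In bulk RNA, fewer cells that express a gene and less RNA per cell cannot be told apart.

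Across the members, transcript levels spanned a wide range, and their order was the same in both libraries. Levels are given as RPKM, recovered reads per kb of the longest annotated transcript, scaled to the library's total of recovered reads. Csf3 was highest, at 59.2 in the LY500307 library and 70.1 in the control library. Csf1 followed at 42.4 in the LY500307 library and 42.3 in the control library. These levels placed Csf3 at percentile 89.4 and 91.1, and Csf1 at percentile 84.2 and 83.9, of the 11384 genes with a deposited value of at least 33.0 in either library. This value, the 40th percentile of all values above 0, is called the floor below.

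The IL-6 family members with clear expression lay lower. Lif had a level of 16.2 in the LY500307 library and 18.1 in the control library, and Clcf1, which encodes a ligand of the ciliary neurotrophic factor receptor, had 14.7 and 16.0. The counting intervals of the single levels overlapped in each library (15.3 to 17.3 for Lif and 13.7 to 15.8 for Clcf1 with LY500307, 17.0 to 19.2 and 14.95 to 17.2 in control cells), but Lif per kb was above Clcf1 by more than counting error, with a ratio of 1.10 (1.005 to 1.21) in the LY500307 library and 1.13 (1.03 to 1.24) in the control library. The choice of length turned this order, to 0.609 and 0.623 with median transcript lengths. Kitl stood at 8.32 in the LY500307 library and 6.65 in the control library. Csf2 was far below the other colony-stimulating factors, at 2.73 in the LY500307 library and 1.38 in the control library. Il11 and Il6 were at the edge of detection, with 0.0679 and 0.176 for Il11, and 0 and 0.117 for Il6, in LY500307 and control cells. The 0 reads of Il6 in the LY500307 library allow a level of up to 0.0848 by the limit of 3 reads set for a count of 0, and of up to 0.104 by the Poisson interval used for the other levels.

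**Figure D1:**
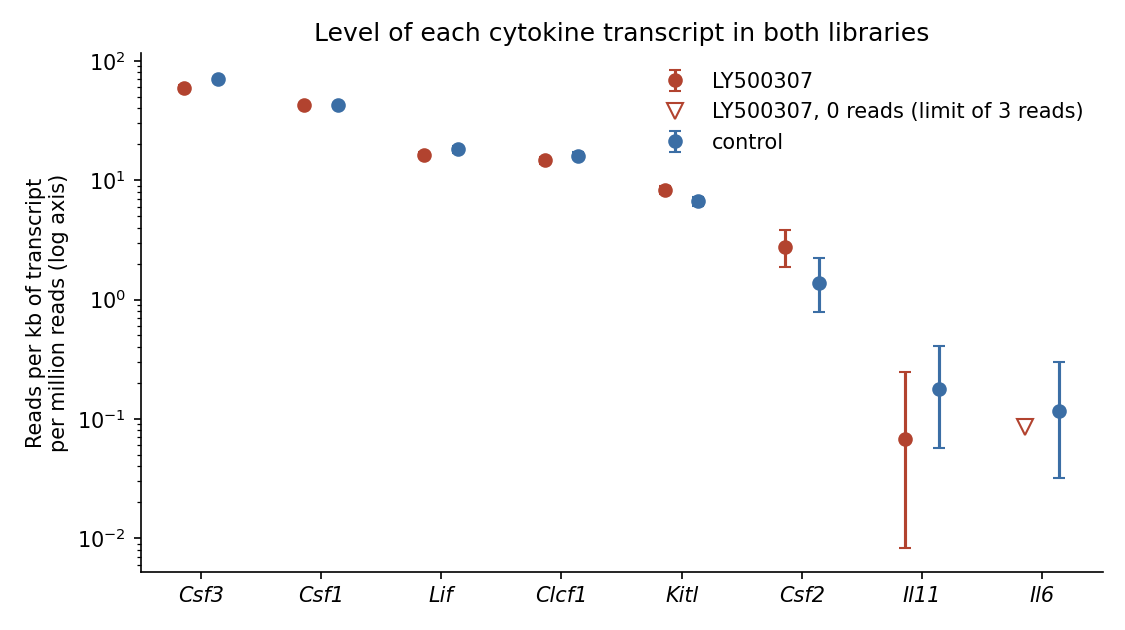
Level of each member in RPKM (log axis), with the LY500307 library in red and the control library in blue and bars for the 95% Poisson counting interval. Csf3 and Csf1 lead at 42.3 to 70.1, Csf2 lies at 2.73 and 1.38, and the open triangle marks the limit of 3 reads for Il6 in the LY500307 library.

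As shares of the summed level of the 8 members, Csf3 made up 41.2% in the LY500307 library and 45.3% in the control library, and Csf1 29.5% and 27.3%. Lif held 11.3% and 11.7%, Clcf1 10.2% and 10.3%, Kitl 5.79% and 4.29%, and Csf2 1.90% and 0.888%. The mixture of growth factor transcripts was thus led by the neutrophil and macrophage factors in both conditions. Total reads over the 8 genes were 6457 in the LY500307 library and 6466 in the control library. The order of levels depends on the length used: with the median transcript length of each gene, Csf1 led at 84.3 in the LY500307 library and 84.2 in the control library, and Kitl, at 48.6 and 38.8, came next after Csf3.

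Between the conditions, the colony-stimulating factors did not move together. Csf3 had a deposited value of 1226 in the LY500307 library, against 1484 in the control library, from 1264 and 1440 reads. It was 1.21-fold lower with LY500307 (95% counting interval 1.12 to 1.31). Csf1 had a deposited value of 2592 in the LY500307 library, against 2647 in the control library, from 2671 and 2568 reads. Its fold was 0.979 with an interval of 0.927 to 1.03, which spans 1. The macrophage factor therefore lay within counting error of its control value, while the neutrophil factor lay below it.

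Csf2 was higher with LY500307, from few reads. It had a deposited value of 32.0 in the LY500307 library, against 16.5 in the control library, from 33 and 16 reads. The fold was 1.94 with an interval of 1.04 to 3.78. At 32.0 it lay just under the floor of 33.0 and is left out of the counts of members below; the nearest member above the floor was Kitl, whose higher value was 689.

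Kitl was the only member above the floor with a higher deposited value in treated cells, although Csf1 stood at a log2 ratio of 0.002 when scaled to total reads. The deposited value of Kitl was 689 in the LY500307 library, against 563 in the control library, from 710 and 546 reads. The fold was 1.22 (1.09 to 1.37). Among genes that reached the floor its log2 ratio lay at percentile 91.4, against 14.8 for Csf3 and 47.5 for Csf1.

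The IL-6 family members with enough reads were slightly lower with LY500307. Lif had a deposited value of 959 in the LY500307 library, against 1092 in the control library, from 988 and 1060 reads. It was 1.14-fold lower (1.04 to 1.24). Clcf1 had 766 in the LY500307 library, against 852 in the control library, from 789 and 827 reads, and was 1.11-fold lower (1.01 to 1.23). Both intervals leave out 1 by a small margin, and that of the fold of Clcf1 spanned 1 when scaled to total reads (0.832 to 1.01) or centred on the median gene (0.823 to 1.002). The gene of IL-6 itself, the founding member of the family, was at the edge of detection. Il6 had 0 reads in the LY500307 library and 4 in the control library, and the counting interval of its fold ran from 0 to 1.43. Il11 had 2 reads in the LY500307 library and 5 in the control library, with an interval of 0.0359 to 2.30. For these 2 genes a difference was not detectable at this depth.

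**Figure D2:**
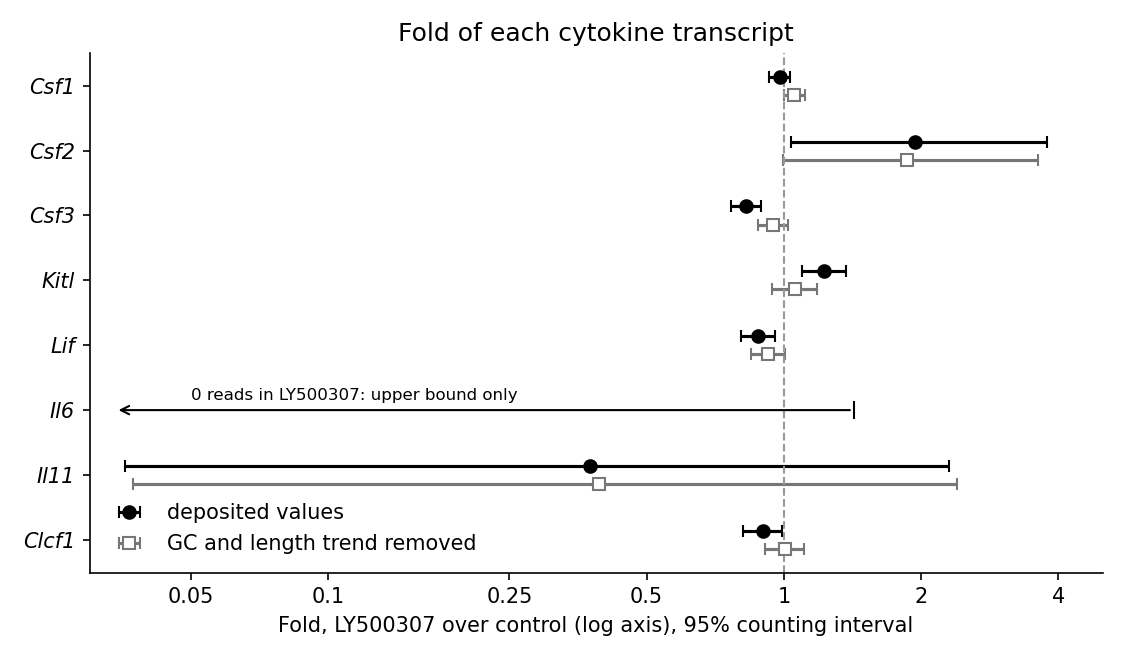
Fold of each member, LY500307 over control, on a log axis with 95% counting intervals. Black circles are deposited values and open squares the same values after removal of a trend in transcript GC content and length. Kitl (1.22) and Csf2 (1.94) lie above 1 and Csf3 (0.826), Lif (0.878) and Clcf1 (0.898) below it on the deposited values, and every interval includes 1 once the trend is removed.

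Counted together, 5 members reached the floor, and none of them was 1.5-fold higher or 1.5-fold lower on the log2 scale with a pseudocount of 1.03. Of all genes that reached the floor, 1.8% were past 1.5-fold on the higher side and 1.97% on the lower side. The counting interval lay above 1 for 1 member, Kitl, and below 1 for 3, Csf3, Lif and Clcf1, where it lay above 1 for 18.1% and below 1 for 23.7% of all genes that reached the floor. An interval apart from 1 was thus common in this table, and its balance depended on scaling, with 2557 genes above 1 and 2287 below when scaled to total reads, against 2060 and 2699 on the deposited values. The median log2 ratio of the 5 members was −0.15, with a range of −0.27 to 0.29, beside −0.02 for all genes that reached the floor, whose quartiles were −0.18 and 0.13.

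Ratios between members inside a library do not depend on how the libraries were scaled. They were compared for the 15 pairs of the 6 members with at least 20 reads, each with an exact conditional 95% interval. The widest gap was that of Csf2 over Csf3, with 0.0261 reads of Csf2 per read of Csf3 in the LY500307 library and 0.0111 in the control library, a 2.35-fold shift (1.25 to 4.59). Kitl over Csf3 was 0.562 with LY500307 and 0.379 in control cells, a 1.48-fold shift (1.29 to 1.70). Csf1 over Csf3 was 2.11 with LY500307 and 1.78 in control cells, a 1.19-fold shift (1.08 to 1.30). The proportions of Csf3, Lif and Clcf1 lay within counting error of their control values, with ratios of folds of 1.06 for Lif over Csf3 (0.945 to 1.19), 1.09 for Clcf1 over Csf3 (0.959 to 1.23) and 1.02 for Clcf1 over Lif (0.896 to 1.17).

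The members also differ in base composition, and in this table the log2 ratio moved with it. Among nuclear genes that reached the floor, log2 ratios had a median of 0.18 in the decile with the lowest GC content (median 39.7%) and −0.29 in the decile with the highest (median 59.4%). Kitl, the member that was higher, has a transcript GC content of 39.3%, and Csf3, the member that was lowest among those above the floor, has 56.6%. Clcf1 has 56.1%, Csf1 54.4%, Lif 53.0% and Csf2 44.8%. Among members above the floor, Kitl, with the lowest GC content, had the highest log2 ratio, and Csf3, with the highest GC content, the lowest. Lif, at −0.19, lay below Csf1 and Clcf1, which have a higher GC content. The part of composition in these differences was not tested. The contrast between Csf3 and Kitl can be seen in the reading frames. Coding bases 91 to 210 of each transcript are printed with G and C in capitals; they number 76 of 120 in Csf3 and 47 of 120 in Kitl.
Csf3: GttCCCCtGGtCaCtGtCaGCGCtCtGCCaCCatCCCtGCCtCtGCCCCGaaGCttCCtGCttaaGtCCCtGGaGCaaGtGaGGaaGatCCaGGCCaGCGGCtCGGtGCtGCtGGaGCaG
Kitl: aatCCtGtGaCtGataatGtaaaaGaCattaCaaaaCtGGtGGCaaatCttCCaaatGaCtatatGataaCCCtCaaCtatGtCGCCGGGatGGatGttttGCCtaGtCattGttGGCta

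With a smooth trend in GC content and length removed, the differences of Csf3, Kitl, Clcf1 and Lif shrank, while that of Csf1 grew in size and changed sign. The log2 ratio of Csf3 was −0.08 in place of −0.27, that of Kitl 0.08 in place of 0.29, that of Clcf1 0.01 in place of −0.15 and that of Lif −0.11 in place of −0.19. Csf1 stood at 0.08 in place of −0.03. None of the 5 members above the floor then had a counting interval apart from 1, where the interval lay above 1 for 10.6% and below 1 for 16.3% of all genes that reached the floor. Csf2 kept most of its difference, with 0.85 in place of 0.92, but its interval, 0.994 to 3.61 as a fold, then reached 1. The gap between Kitl and Csf3 narrowed to 0.16 from 0.57 on the log2 scale, that between Kitl and Csf1 to 0.003 from 0.32, and that between Csf2 and Csf3 to 0.93 from 1.19. Not every gap narrowed. That of Csf2 over Kitl widened to 0.77 from 0.62, that of Csf1 over Lif to 0.19 from 0.16, and that of Clcf1 over Lif to 0.12 from 0.03. Lif over Csf3 turned to −0.03 from 0.09. The other pairs narrowed.

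**Figure D3:**
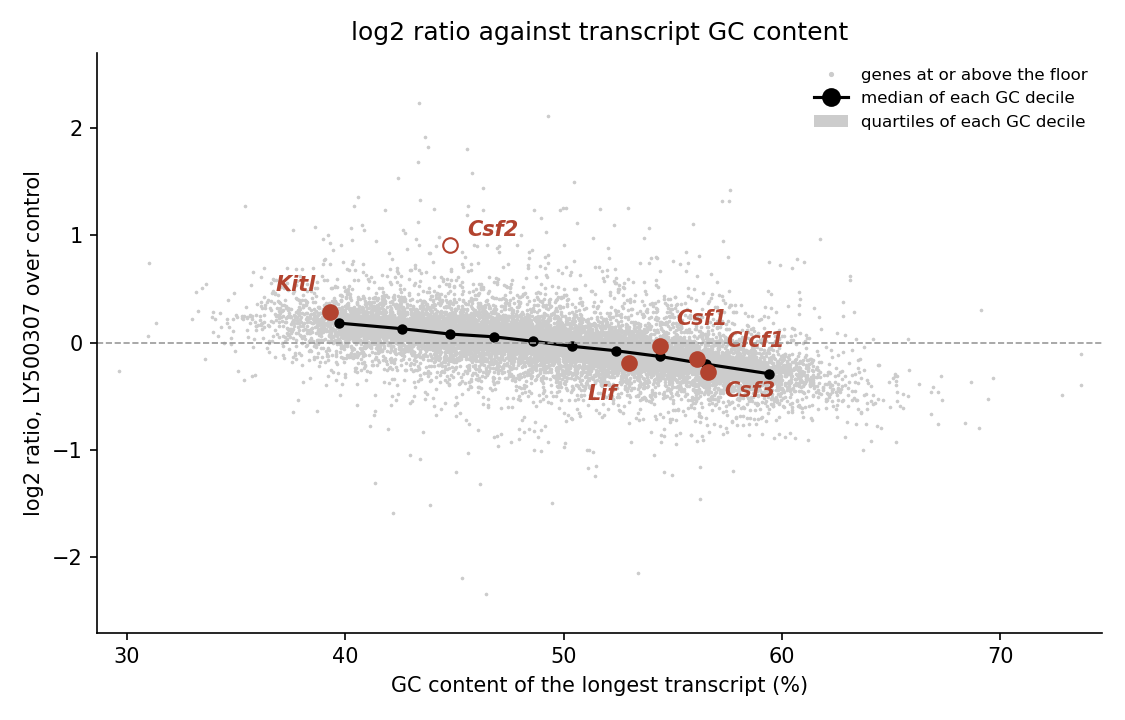
log2 ratio, LY500307 over control, against GC content of the longest transcript for nuclear genes that reached the floor (grey), with medians and quartiles of each GC decile (black) and the members with at least 20 reads (red; Csf2, open, lay under the floor). The decile medians descend from 0.18 to −0.29, with Kitl at 0.29 and Csf3 at −0.27. Lif (−0.19) lies below Csf1 (−0.03) and Clcf1 (−0.15), which have a higher GC content. Csf2 lies above the medians at 0.92.

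Other ligands of the same receptors were scarce or lower. Of 13 further ligands, 8 were in the table and 2 reached the floor; Il3, Il5, Epo, Osm and Il31 were not analysed here. Il34, which encodes the second ligand of the M-CSF receptor, had 439 reads in the LY500307 library and 568 in the control library and was 1.37-fold lower (1.21 to 1.56). Its log2 ratio was −0.46, and −0.26 with the trend removed. With a level of 16.2 in treated and 21.8 in control cells, it stood near Lif by the longest transcript. With median transcript lengths Il34 stood at 43.1 in treated and 57.9 in control cells, above Lif at 17.2 and 19.2. Ctf1, which encodes cardiotrophin 1, had 45 reads in the LY500307 library and 60 in the control library, and its fold of 0.706 (0.469 to 1.06) spanned 1. Flt3l, which encodes a growth factor of dendritic cell progenitors, had 29 reads in the LY500307 library and 30 in the control library, a fold of 0.910 (0.527 to 1.57).

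Receptor transcripts of the IL-6 family that reached the floor lay within counting error between conditions, whereas those of the myeloid growth factors were close to nil. Of 18 receptor genes, 12 were in the table and 5 reached the floor. None of the 5 was 1.5-fold apart and none had an interval apart from 1. Of all genes that reached the floor, the interval lay above 1 for 18.1% and below 1 for 23.7%. The median log2 ratio of the 5 receptor genes was 0.01. Il6st, the shared signalling chain, had 1387 reads in the LY500307 library and 1230 in the control library (fold 1.06, 0.982 to 1.15). Il6ra, the IL-6 binding chain, had 335 and 307 reads (fold 1.03, 0.877 to 1.20) and Osmr, the oncostatin M receptor chain, 74 and 69 (fold 1.01, 0.717 to 1.42). The IL-11 receptor gene Il11ra1 had 59 reads with LY500307 and 72 in control cells (fold 0.771, 0.537 to 1.10), and Cntfr, which encodes the binding chain for CLCF1, had 78 and 76 (fold 0.966, 0.695 to 1.34). Lifr, the LIF binding chain, had 26 reads with LY500307 and 23 in control cells (fold 1.06, 0.584 to 1.95), and the IL-27 receptor gene Il27ra had 15 and 12 (fold 1.18, 0.514 to 2.75). Both lay under the floor, with few reads and wide intervals. The level of Lifr was 0.178 in the LY500307 library and 0.164 in the control library, and that of Il27ra was 0.339 and 0.282.

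Against the abundant Csf1, its receptor gene Csf1r had 1 read in the LY500307 library and 2 in the control library. Kit, the receptor gene for the Kitl product, had 0 and 4 reads, and Csf2ra, which encodes a GM-CSF receptor chain, had 2 and 3. These 3 receptor genes are named after their values were seen. Csf3r, Csf2rb, Csf2rb2, Flt3 and Il11ra2 were among those not analysed here. Reads of the ligand genes Csf1 and Kitl thus stood beside at most 4 reads of their receptor genes in either library.

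The relay from receptor to nucleus lay near its control level. All 12 genes of that list (JAK kinases, STAT factors and adaptors) reached the floor, with a median log2 ratio of −0.03 and a range of −0.19 to 0.18, and none was 1.5-fold apart. Of all genes that reached the floor, the interval lay above 1 for 18.1% and below 1 for 23.7%. In this list it lay above 1 for 1 gene and below 1 for 2. These were Jak2, a kinase of many cytokine receptors, with 832 reads in the LY500307 library and 690 in the control library (1.13-fold higher, 1.03 to 1.26), the adaptor gene Shc1, with 1929 and 2078 (1.14-fold lower, 1.07 to 1.22), and Stat5b, with 756 and 797 (1.12-fold lower, 1.01 to 1.24). The kinase gene Tyk2 had a fold of 0.889 that spanned 1 (0.774 to 1.02). With the trend removed, the intervals of Jak2 (0.939 to 1.15 as a fold) and Stat5b (0.837 to 1.02) spanned 1, and that of Shc1 (0.874 to 0.9904) lay below it.

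Among feedback inhibitors, Socs3 and Socs1 had the lowest log2 ratios of those that reached the floor. Of 12 genes, 10 reached the floor, with a median log2 ratio of −0.03. Of these, 1 was 1.5-fold lower and none was 1.5-fold higher, beside 1.97% and 1.8% of all genes that reached the floor. The interval lay below 1 for 4 and above 1 for none, beside 23.7% and 18.1% of all genes that reached the floor. Socs3, which encodes the inhibitor that binds the Il6st product and the G-CSF receptor, had 243 reads in the LY500307 library and 376 in the control library and was 1.64-fold lower (1.39 to 1.94). Socs1, which encodes an inhibitor of JAK kinases, had 121 and 168 reads and was 1.47-fold lower (1.16 to 1.88). The phosphatase gene Ptpn1 was 1.18-fold lower (1.09 to 1.26) and Pias3, which encodes an inhibitor of STAT3, 1.20-fold lower (1.01 to 1.41). With the trend removed, the log2 ratio was −0.46 for Socs3 and −0.31 for Socs1, and the median of the list was −0.11. Of these 10 genes only Socs3 then had an interval below 1, beside 16.3% of all genes that reached the floor. The intervals of Socs1 (0.632 to 1.02 as a fold), Ptpn1 (0.8725 to 1.005) and Pias3 (0.776 to 1.08) spanned 1. None of the 10 was then 1.5-fold lower.

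Textbook target genes of STAT3 leaned lower. Of 16 genes, 12 reached the floor, with a median log2 ratio of −0.20; 2 were 1.5-fold lower and none 1.5-fold higher, and the interval lay below 1 for 7 and above 1 for 1. Over all genes that reached the floor, 1.97% were 1.5-fold lower and 1.8% higher, and the interval lay below 1 for 23.7% and above 1 for 18.1%. Beside Socs3, which is also in the list of inhibitors, Cebpd, a transcription factor gene of the acute phase, had 80 reads in the LY500307 library and 119 in the control library (1.58-fold lower, 1.18 to 2.12). Vegfa, which encodes the vascular growth factor, was 1.22-fold lower (1.09 to 1.35). The median of the list was −0.07 with the trend removed, while Cebpd, with a GC content of 51.6%, stood at −0.61 in place of −0.65. The interval then lay below 1 for 6 of the 12 genes and above 1 for none. Of all genes that reached the floor, it then lay below 1 for 16.3% and above 1 for 10.6%. Fos, an AP-1 subunit gene that lay under the floor like Csf2 and is named after its values were seen, had 28 reads in the LY500307 library and 12 in the control library, a fold of 2.20 (1.08 to 4.74).

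Factors known to switch on these cytokine genes were mostly lower, in a list that shares Cebpd, Junb and Fos with the STAT3 target genes. Cebpd was among the genes 1.5-fold lower in both lists. Of 17 transcription factor genes, 15 reached the floor, with a median log2 ratio of −0.35; 2 were 1.5-fold lower and none 1.5-fold higher, and the interval lay below 1 for 11 and above 1 for 1, beside 23.7% and 18.1% of all genes that reached the floor. Cebpb, whose product was first known as a nuclear factor of IL-6 expression, had 539 reads in the LY500307 library and 860 in the control library and was 1.69-fold lower (1.52 to 1.89). Junb, an AP-1 subunit gene, was 1.45-fold lower (1.38 to 1.53) and Relb, an NF-kB subunit gene, 1.38-fold lower (1.19 to 1.59). This list is GC-rich, with a median of 55.5% against 49.6% for all genes that reached the floor. With the trend removed its median was −0.12, with 14 of 15 genes below 0 and the interval below 1 for 9 and above 1 for 1. Of all genes that reached the floor, 6175 then lay below 0 and 5195 above, with the interval below 1 for 16.3% and above 1 for 10.6%. Cebpb stood at −0.38, Relb at −0.28 and Junb at −0.15. The trend is held constant beyond the 99th percentile of GC content. Cebpb, with a GC content of 67.2% (percentile 99.9), thus had the same −0.38 removed as Junb at 62.6%. Whether more should be removed for Cebpb was not tested.

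Genes for proteins that bind cytokine messenger RNAs gave a mixed picture on the deposited values. All 12 reached the floor, with a median log2 ratio of −0.06. Of these, 1 was 1.5-fold lower and none 1.5-fold higher, beside 1.97% and 1.8% of all genes that reached the floor. The interval lay below 1 for 5 and above 1 for 3, beside 23.7% and 18.1% of all genes that reached the floor. Zc3h12a, which encodes an RNase that degrades Il6 messenger RNA, had 382 reads in the LY500307 library and 547 in the control library and was 1.52-fold lower (1.33 to 1.74). Zfp36, which encodes the protein that binds AU-rich elements of the kind printed above and shortens the life of Csf2 messenger RNA, had 185 and 243 reads and was 1.40-fold lower (1.15 to 1.70). Its relative Zfp36l2 was 1.29-fold lower (1.25 to 1.33), and Arid5a, whose product stabilises Il6 messenger RNA, 1.33-fold lower (1.20 to 1.46). With the trend removed, 11 of 12 genes lay below 0, beside 6175 of all genes below and 5195 above. The interval then lay below 1 for 6 and above 1 for none, beside 16.3% and 10.6% of all genes that reached the floor. The log2 ratios were −0.40 for Zc3h12a, −0.36 for Zfp36, −0.29 for Arid5a and −0.24 for Zfp36l2. The half-life of the members' messenger RNAs was not measured.

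Among 5 proteases that cut growth factors from the membrane or mature their precursors and partners, Furin, a proprotein convertase gene, was 1.36-fold lower with 1487 reads in the LY500307 library and 1901 in the control library (1.27 to 1.45). Adam17, which encodes a sheddase of M-CSF and stem cell factor among other substrates, was 1.12-fold higher (1.04 to 1.21). Mmp9 (fold 0.919, 0.827 to 1.02) and Mmp14 (fold 0.956, 0.885 to 1.03) spanned 1. None of the 5 was 1.5-fold apart, beside 1.8% higher and 1.97% lower of all genes that reached the floor. The median log2 ratio was −0.07. With the trend removed, Adam17 stood at 0.06 with an interval that spanned 1 (0.9705 to 1.13 as a fold), and Furin at −0.31 with an interval below it (0.751 to 0.861). For 2 of the 5, Furin among them, the interval then lay below 1, and for none above. Of all genes that reached the floor, it then lay below 1 for 16.3% and above 1 for 10.6%.

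**Figure D4:**
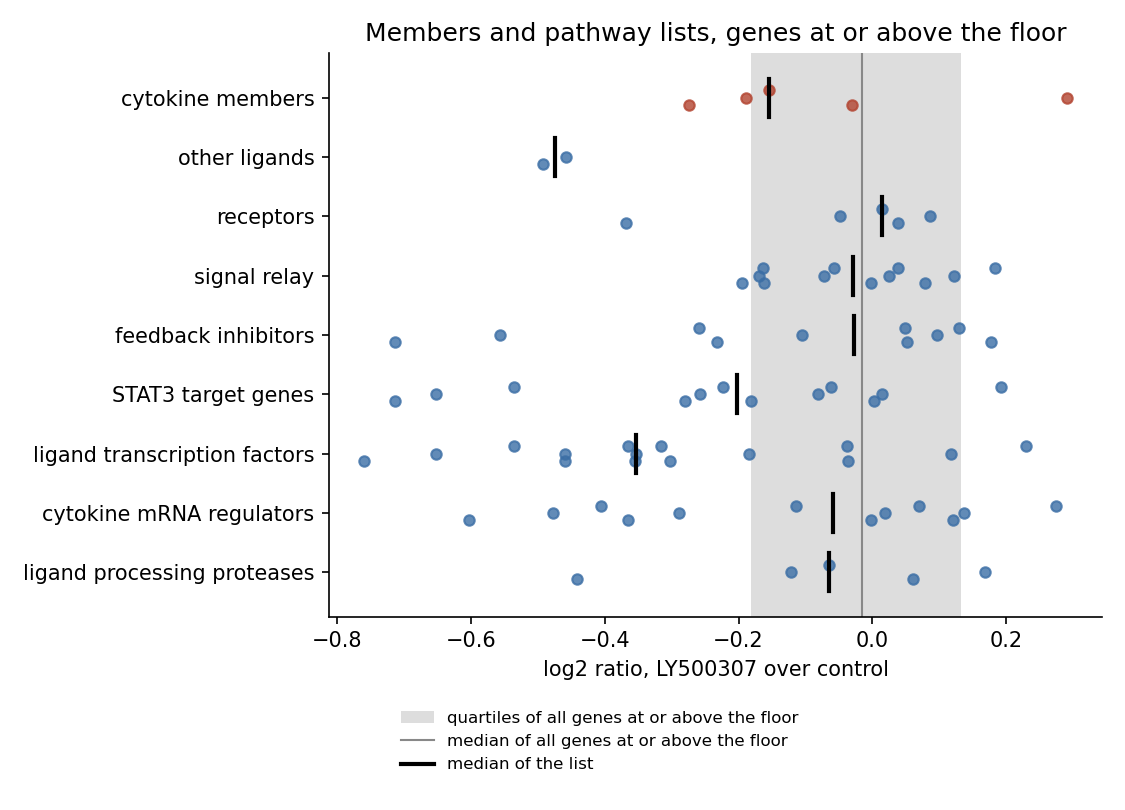
log2 ratio, LY500307 over control, of the members (red) and of the genes of each pathway list (blue) that reached the floor, with the list median as a black bar and the quartiles and median of all genes as a grey band and line. The medians of the members (−0.15), STAT3 target genes (−0.20) and transcription factors (−0.35) lie below that of all genes (−0.02), and those of receptors (0.01) and signal relay (−0.03) lie close to it.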

How the data were processed

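RNA was measured in 1 LY500307-treated and 1 control-treated library of 4T1 cells, from total RNA depleted of ribosomal RNA, per the labels' protocols. CASAVA 1.8, Bowtie2 and mm9 are named in the submitters' processing notes, without roles; the counter, annotation, strand setting and normalization used by the authors are not stated there. The authors' deposited signal per gene rises in steps of 1 read, worth 0.970322 in the LY500307 and 1.03059 in the control library; divided by these steps, 99.96% and 99.95% of values came within 0.01 of whole numbers, the recovered reads. A listed value of 1.39e-17 was read as 0. Symbols, lengths and GC contents came from GENCODE M21, which held 19451 of 19498 IDs; the build behind the table could not be checked, so no coordinates are given.

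The log2 ratio used a pseudocount of 1.03, the 5th percentile of nonzero values, and a floor of 33.0; it understates differences of genes with few reads. Folds of single genes are ratios of deposited values, with an exact 95% Clopper-Pearson interval for the fraction of a gene's reads that came from treated cells. Level intervals are exact Poisson intervals. Intervals cover counting error only, and since no molecular identifiers mark single molecules they may be too narrow. No p-value is given and no count model was fitted, because single libraries leave nothing to estimate spread from. The trend was fitted robustly (statsmodels 0.14.6) with spline terms, 5 degrees of freedom apiece, in GC content and log length, with both limited to their 1st to 99th percentiles; a gene's interval was shifted with its value. TMM factors came from edgeR 4.0.16 and matched the scaling between the deposited columns to 4 decimals. Procedures were tested on simulated data. The members and lists were chosen with earlier results of these data known. Named genes were the members, further ligands and receptors with at least 20 reads, and up to 4 genes per other list with the largest log2 ratio of either sign; Csf1r, Kit, Csf2ra and Fos were added after their values were seen.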

Additional observations from a re-analysis of the deposited data

How the results depend on the processing

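The medians of all lists and the log2 ratios of the 6 members with at least 20 reads stayed within their limits (the counting interval for a gene, 0.1 on the log2 scale for a median) under scaling by total recovered reads, centring on the median and a pseudocount of 10. For Csf2 this limit is wide, 1.04 to 3.78 as a fold. Its log2 ratio fell to 0.6655 from 0.9153 with a pseudocount of 10. The interval of Clcf1 spanned 1 under scaling by total reads and under centring, so that the count of members below 1 became 2. TMM factors gave the same counts as the deposited values but are no separate check of the scaling: 1 treated read was worth 0.9415 of a control read under both, against 0.9628 by total reads. Removal of the GC and length trend moved Csf1 to 0.0765, Csf3 to −0.0807 and Kitl to 0.0795, turned Clcf1 to 0.0065 and with it the median of the members to 0.0065, and moved the medians of other ligands to −0.2913, STAT3 target genes to −0.0726 and ligand transcription factors to −0.1194; the counts of members with an interval above 1 and below 1 became 0 and 0. Without a floor, 1 member (Csf2) was 1.5-fold higher. Another 2, Il6 and Il11, were 1.5-fold lower, from few reads and with intervals that spanned 1. An interval above 1 was then found for 2 members, beside 2276 of all 19498 genes. The medians of other ligands and feedback inhibitors were −0.2946 and −0.1691. Of all 19498 genes, 2615 were 1.5-fold higher and 2301 lower without a floor. Among the 11384 genes that reached the floor, the counts at a 2-fold threshold were 47 and 25. With a pseudocount of 10 the higher count was 135, and with the trend removed the counts were 191 higher and 118 lower. No paired analysis was possible because each condition had 1 library. Depth limits Csf2, Il6 and Il11, whose reads were too few for a narrow interval.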
